A study of Mus musculus with 2 samples.

Results

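The 6 miRNA genes that lie inside the mouse Hox clusters, Mir10a, Mir10b, Mir196a-1, Mir196a-2, Mir196b and Mir615, were described in adrenal gland, out of 2202 annotated miRNA genes in the count tables. The rule is position in a Hox cluster, applied through GENCODE M21 symbols, and uses no measured value, though earlier results of these data were known when it was set. The material was adrenal tissue of C57BL/6J mice, an inbred strain, with no treatment named. A free-text label gives wild type and male, the sex field reads as not collected, and age and stage are unknown. There is 1 group with 2 libraries, numbered as biological replicates 1 and 2 but linked to 1 donor record, so the spread between them may be technical.

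Hox genes encode transcription factors that set identity along the head-to-tail axis of the embryo, and mammals carry them in 4 clusters, Hoxa to Hoxd. Within a cluster, genes toward the 3′ end are expressed earlier and further forward, and genes toward the 5′ end later and further back. The 6 miRNA genes sit between or within the Hox genes, on the strand of their cluster. The mir-10 genes stand just upstream of the Hox4 genes, and the mir-196 genes stand between Hox9 and Hox10 or the gap left by a lost Hox10. MiR-196 is known in mouse embryos for directing cleavage of the Hoxb8 mRNA, and miR-10b is known in human breast cancer cells for repressing HOXD10. A miRNA finds its targets mainly through its seed, bases 2 to 8 from the 5′ end, so members with 1 seed can act on overlapping sets of mRNAs.

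The mature sequences, taken from RefSeq (GRCm38.p6), place 5 of the 6 genes in 2 seed groups and Mir615 alone. They are shown 5′ to 3′ with the seed in capitals, because the groups and the single-base differences decide how the counts below can be read.

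miR-10a-5p: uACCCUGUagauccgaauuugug

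miR-10b-5p: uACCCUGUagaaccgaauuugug

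miR-196a-5p: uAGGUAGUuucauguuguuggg

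miR-196b-5p: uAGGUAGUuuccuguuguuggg

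miR-615-3p: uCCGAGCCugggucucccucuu

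miR-615-5p: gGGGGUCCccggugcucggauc

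Counted from 1 at the 5′ end, miR-10b-5p and miR-10a-5p differ by A12U alone, and miR-196b-5p and miR-196a-5p by C12A alone. The seed ACCCUGU belonged to miR-10a-5p and miR-10b-5p and the seed AGGUAGU to miR-196a-5p and miR-196b-5p, and no arm of any other miRNA gene among 1738 mature arms in the RefSeq table carried a seed of the 6 genes. Counting was by hairpin, and the 5p and 3p arms of a gene are not separated. The arms are 22 or 23 nt long, and a read covers about 1 arm, so levels were compared between genes without division by hairpin length.

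The 5p arm of miR-196a is made from 2 loci. Both hairpins are shown with their arms in capitals, because they share this arm and little else.

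Mir196a-1: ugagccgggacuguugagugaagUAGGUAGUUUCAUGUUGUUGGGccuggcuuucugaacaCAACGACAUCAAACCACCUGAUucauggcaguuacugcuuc

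Mir196a-2: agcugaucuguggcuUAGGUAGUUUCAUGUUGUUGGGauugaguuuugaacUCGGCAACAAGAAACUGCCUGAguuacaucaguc

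The longest stretch common to these hairpins was 22 nt, exactly the 5p arm, and none of the other 4 genes shared 20 nt or more with any counted hairpin. The longest stretch common to the mir-10 hairpins, shown in the same way, was 15 nt, and that common to Mir196b and Mir196a-2 was 12 nt.

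Mir10a: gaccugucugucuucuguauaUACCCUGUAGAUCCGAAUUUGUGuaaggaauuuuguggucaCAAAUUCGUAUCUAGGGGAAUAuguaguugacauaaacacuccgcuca

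Mir10b: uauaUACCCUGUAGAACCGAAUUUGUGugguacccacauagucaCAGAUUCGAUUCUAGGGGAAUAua

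A read of the plain miR-196a-5p arm therefore matches both loci. Reads placed at several loci stand in a line of their own, 6718323 in replicate 1 and 2415794 in replicate 2, and are not divided by gene. The values of Mir196a-1 and Mir196a-2 below are thus for reads that could be placed at 1 locus, and the level of miR-196a itself is uncertain.

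On mm10, Mir10a (ENSMUSG00000065519.1) occupies 96317165 to 96317274 on the plus strand of chromosome 11, outside the other annotated transcripts, and 1495 nt before the Hoxb4 coding region. Mir196a-1 (ENSMUSG00000065546.1) lies on the same strand from 96265164 to 96265265, also outside other transcripts, 6.28 kb before the Hoxb9 coding region. Mir10b (ENSMUSG00000065500.3) lies on chromosome 2 from 74726070 to 74726137, plus strand, in introns of Hoxd3 and Hoxd4 transcripts, 1.14 kb before the Hoxd4 coding region. Mir196b (ENSMUSG00000065443.1) lies on chromosome 6 from 52230081 to 52230165, minus strand, between the Hoxa10 and Hoxa9 coding regions, and overlaps an exon of 2 of the 3 Hoxa9 transcripts there. Mir196a-2 (ENSMUSG00000065488.2) lies on chromosome 15 from 102973350 to 102973434, plus strand, between the Hoxc10 and Hoxc9 coding regions and in an intron of 1 Hoxc5 transcript. Mir615 (ENSMUSG00000076010.1) lies on the same strand from 103014910 to 103015001, in an intron of both Hoxc5 transcripts that span it. The annotation has 1 further gene of the miRNA class in the clusters, Gm44463 on the minus strand of chromosome 2, which had 0 counts in both replicates.

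**Figure D1:**
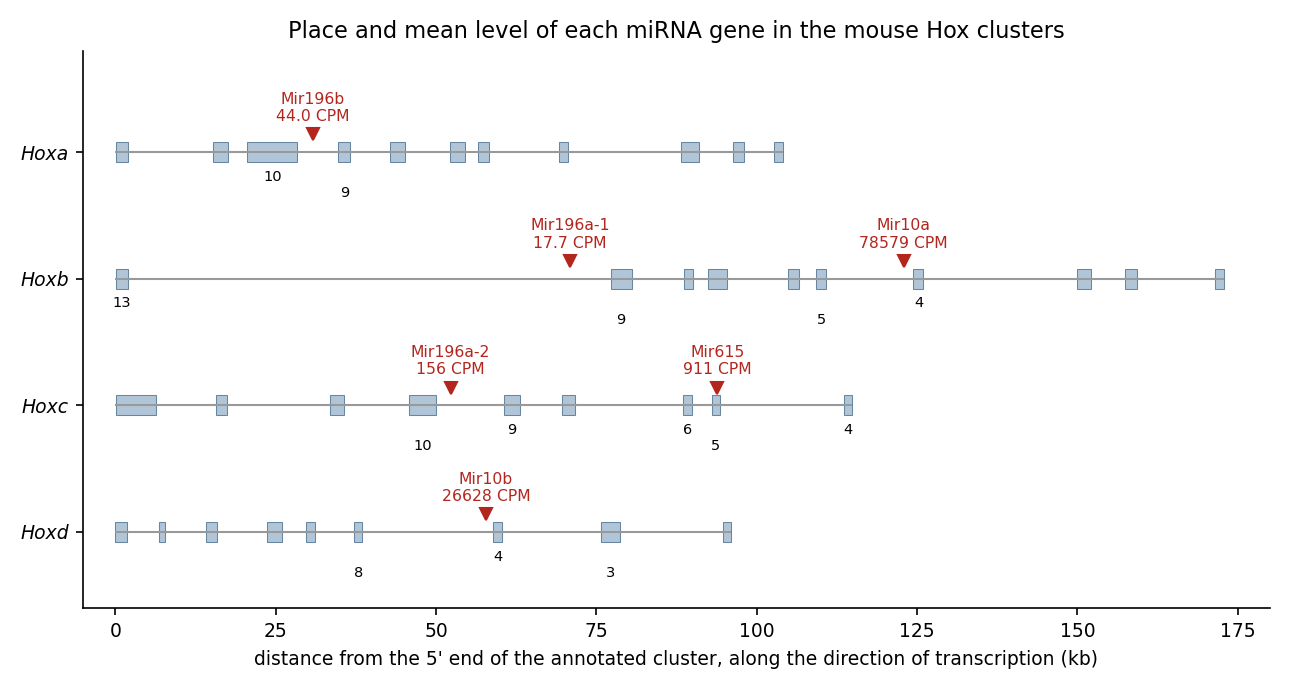
Position of the 6 miRNA genes (red triangles, with the mean CPM of 2 replicates) and of the Hox coding regions (blue boxes, numbered where they flank or overlap a miRNA gene) in the 4 mouse clusters, as distance in kb from the 5′ end of each cluster along its direction of transcription. Mir10a and Mir10b, at 78579 and 26628 CPM, stand before Hoxb4 and Hoxd4. In Hoxb, which holds both kinds, Mir196a-1 at 17.7 CPM stands nearer the 5′ end than Mir10a. Multimapping reads of miR-196a-5p are left out of these levels.

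The libraries differed in depth. Sense counts summed to 10263894 in replicate 1 and to 3525666 in replicate 2. The unmapped share was 13.8% and 41.4% of all reads, and the multimapping share 37.8% and 38.8% of mapped reads. The neuroendocrine gene Mir375 had 68022 and 76044 CPM (assigned sense counts scaled to a library total of 1e+06), and Mir7b, of the same list, had 4743 and 3557 CPM. The kidney list of 5 genes summed to 180 and 252 CPM, with 3 of 5 at 10 CPM or more in both. Liver Mir122 had 104 and 97.6 CPM, skeletal muscle Mir206 had 2.14 and 2.55 CPM, and Mir133b had 1 and 0 counts. The tables hold no mRNA, so the steroid-producing cortex was not checked by its own enzymes, and in bulk tissue fewer cells of a type cannot be told apart from less RNA per cell.

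All 6 genes reached 10 CPM in both replicates, a level reached by 12.1% of the 2202 miRNA genes. Together they took 10.6% of assigned counts in each replicate, 10.628% in replicate 1 and 10.639% in replicate 2. With multimapping reads added to the total the mean share was 6.37%, and the level of Mir10a, for example, was 47044 CPM where it is otherwise 78579 CPM. The mir-10 seed group held 10.50% and 10.54% of assigned counts, and the mir-196 seed group held 0.0238% and 0.0197%. The mir-196 share leaves out multimapping reads of the miR-196a-5p arm, which carries the seed, so the abundance of that group is uncertain.

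**Figure D2:**
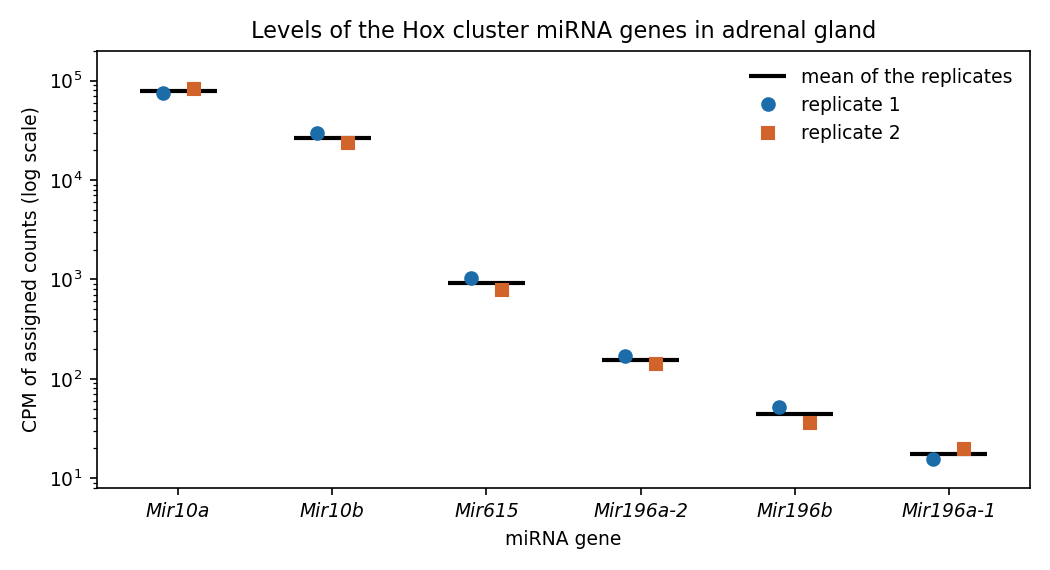
Level of each Hox cluster miRNA gene in CPM on a log axis, with circles for replicate 1, squares for replicate 2 and a bar at their mean. By assigned reads, levels fell from 78579 CPM for Mir10a to 17.7 CPM for Mir196a-1, and no neighbouring pair overlapped between replicates. Multimapping reads of miR-196a-5p are left out, so the places of Mir196a-1 and Mir196a-2 in this order are uncertain.

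Mir10a, the gene before Hoxb4, had 775844 counts in replicate 1 and 287583 in replicate 2. These are 75590 and 81568 CPM, a mean of 78579 ± 4228 CPM (SD, n = 2). By assigned reads it ranked 3rd among all miRNA genes in both replicates and made up 71.1% and 76.7% of the counts of the 6 genes. These shares, and all ranks here and below, leave out multimapping reads, so a miRNA made from several loci can rank too low. Mir10b, the gene before Hoxd4, had 301977 and 84033 counts, or 29421 and 23835 CPM, a mean of 26628 ± 3950 CPM (SD, n = 2). It was lower than Mir10a in both replicates and higher than each of the other 4 genes, and ranked 11th in replicate 1 and 14th in replicate 2.

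Mir615, within Hoxc5, had 10623 and 2773 counts. These are 1035 and 787 CPM, a mean of 911 ± 176 CPM (SD, n = 2), with Wilson 95% intervals from 1015.5 to 1055 CPM in replicate 1 and from 758 to 816 CPM in replicate 2. It stood between the mir-10 and the mir-196 genes in both replicates, at rank 68 and rank 74.

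By reads placed at 1 locus, the mir-196 genes were the lowest. Mir196a-2 of Hoxc had 1746 and 501 counts, or 170 and 142 CPM, a mean of 156 ± 19.8 CPM (SD, n = 2). Mir196b of Hoxa had 536 and 126 counts, or 52.2 and 35.7 CPM, a mean of 44.0 ± 11.7 CPM (SD, n = 2). Mir196a-1 of Hoxb had 162 and 69 counts, or 15.8 and 19.6 CPM, a mean of 17.7 ± 2.68 CPM (SD, n = 2), with Wilson 95% intervals from 13.5 to 18.4 CPM and from 15.5 to 24.8 CPM. The replicates kept these 3 genes apart and in the same order, although of the 3 only Mir196b has a 5p arm that no other counted hairpin holds whole. The Wilson intervals cover counting error alone, since copies of 1 molecule made by PCR are not told apart.

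The order Mir10a, Mir10b, Mir615, Mir196a-2, Mir196b, Mir196a-1 was the same in both replicates, and no 2 neighbours had overlapping ranges. With 2 replicates of 1 group this order is a description and was not tested. In Hoxb, the cluster with both a mir-10 and a mir-196 gene, Mir10a had 4789 times the counts of Mir196a-1 in replicate 1 (exact binomial 95% interval from 4106 to 5622) and 4168 times in replicate 2 (3293 to 5357). In Hoxc, Mir615 had 6.08 times the counts of Mir196a-2 in replicate 1 (5.78 to 6.40) and 5.53 times in replicate 2 (5.03 to 6.10). In both clusters the gene nearer the 3′ end was the higher one, with the limit that multimapping reads of miR-196a enter neither denominator.

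Read by cluster, Hoxb held 7.86% ± 0.42 of assigned counts (SD, n = 2) and Hoxd 2.66% ± 0.40, each almost wholly from its mir-10 gene. Hoxc held 0.107% ± 0.020 and Hoxa, with Mir196b alone, 0.0044% ± 0.0012. The Hoxa and Hoxc clusters hold no counted mir-10 gene.

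The replicates disagreed on how the mir-10 counts divide. Mir10a had 2.57 times the counts of Mir10b in replicate 1 (exact binomial 95% interval from 2.56 to 2.58) and 3.42 times in replicate 2 (3.40 to 3.45), a ratio that does not depend on the scaling of the libraries. The intervals do not overlap, so the mean ratio of 2.996 ± 0.603 (SD, n = 2) varied between libraries by more than counting error. The summed share of the 6 genes was near equal in both replicates all the same.

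Each gene was then compared between the replicates by an exact two-sided binomial test on TMM-scaled library sizes, with Benjamini-Hochberg adjustment over the 443 miRNA genes with at least 10 counts. This test compares 2 libraries and not 2 conditions. Of the 6 genes, 5 differed beyond counting noise at an adjusted p of 0.05, against 52.8% of all tested genes. Mir10a was higher in replicate 2, as were 21.2% of tested genes, and Mir10b, Mir615, Mir196a-2 and Mir196b were higher in replicate 1, as were 31.6%. About as many of all tested genes differed as did not. All 6 members reached a mean of 10 CPM. Of the 277 tested genes that did, 87 were called higher in replicate 2, 124 higher in replicate 1, and 66 were not called. The share of members called is to be read against both backgrounds.

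The sizes were small. The log2 ratio of replicate 2 over replicate 1 was 0.09 for Mir10a (95% interval from 0.086 to 0.099) and -0.32 for Mir10b (-0.33 to -0.31). It was -0.41 for Mir615 (-0.47 to -0.35; exact binomial adjusted p = 1.30e-42), and -0.28 for Mir196a-2 (-0.42 to -0.13; exact binomial adjusted p = 0.000311). Mir196b had -0.56 (-0.86 to -0.28; exact binomial adjusted p = 0.000128). Mir196a-1 had a log2 ratio of 0.30, with an interval from -0.14 to 0.71 and an adjusted p of 0.265 by the exact binomial test, so a difference was not detectable at its 162 and 69 counts. The median gene of the 6 lay 1.24-fold apart between replicates, against 1.36-fold for all 443 tested genes and 1.32-fold for 277 of them whose mean reached 10 CPM. Mir196b, at 1.47-fold, was the member furthest apart, and 60.7% of tested genes lay closer together than it did.

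**Figure D3:**
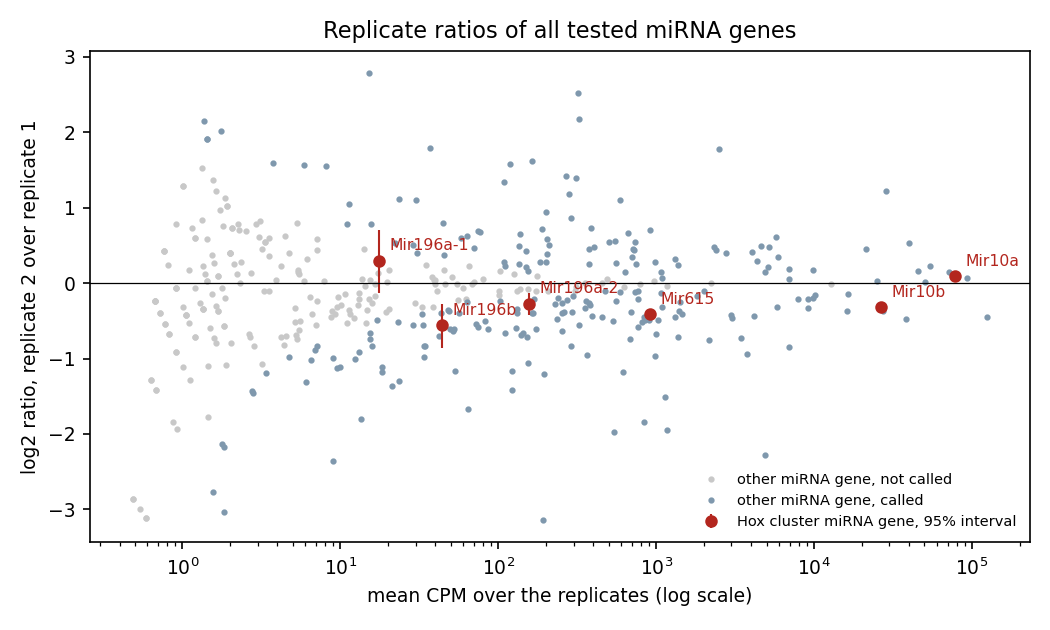
Log2 ratio of replicate 2 over replicate 1 against mean CPM (log axis) for 443 tested miRNA genes, grey where not called and blue where called, with the 6 Hox cluster genes in red and their 95% counting intervals. The red points lie between -0.56 and 0.30, inside the cloud of the other genes.

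Markers of other cells moved between the same libraries. Erythroid Mir451a and Mir144 summed to 8357 CPM in replicate 1 and 1804 CPM in replicate 2, and both were called higher in replicate 1. The leukocyte list, Mir142, Mir150 and Mir223, summed to 508 and 876 CPM, and all 3 were called higher in replicate 2. Endothelial Mir126a had 89916 and 95595 CPM, and smooth muscle Mir143 and Mir145a together 25619 and 26619 CPM. Mir126a, Mir143 and Mir145a were each called higher in replicate 2 as well. The part of these cells, or of the unmapped share, in the ratios of the Hox cluster genes was not tested.

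The nearest relatives of mir-10 outside the Hox clusters are the mir-99, mir-100 and mir-125 genes, which stand beside let-7 genes. MiR-100-5p shares a stretch of 11 nt with miR-10a-5p, miR-99a-5p one of 10 nt, and miR-99b-5p and both mir-125 arms one of 5 nt, but none has its seed. These arms were not compared with miR-10b-5p, so the stretches do not rank their nearness to the mir-10 genes as a group. These 6 relatives took 5.06% of assigned counts in replicate 1 and 7.10% in replicate 2, where the mir-10 genes took 10.50% and 10.54%. Multimapping reads of miR-125b-5p are left out, so whether the relatives hold less than the mir-10 genes is uncertain. By assigned reads Mir99a led them with 32560 and 47509 CPM, followed by Mir99b with 9155 and 10468 CPM. By the same exact binomial test, 5 of the 6 relatives were called higher in replicate 2, none higher in replicate 1, and Mir125b-2 was not called (355 and 357 CPM). Of all tested genes, 21.2% were called higher in replicate 2 and 31.6% higher in replicate 1. Among the 277 genes whose mean reached 10 CPM, the numbers were 87 and 124. Mir99a had a log2 ratio of 0.53 and Mir125a of 0.62, where Mir10b had -0.32. Mir125b-1 and Mir125b-2 make the same 5p arm, so their levels carry the same limit as the Mir196a loci.

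**Figure D4:**
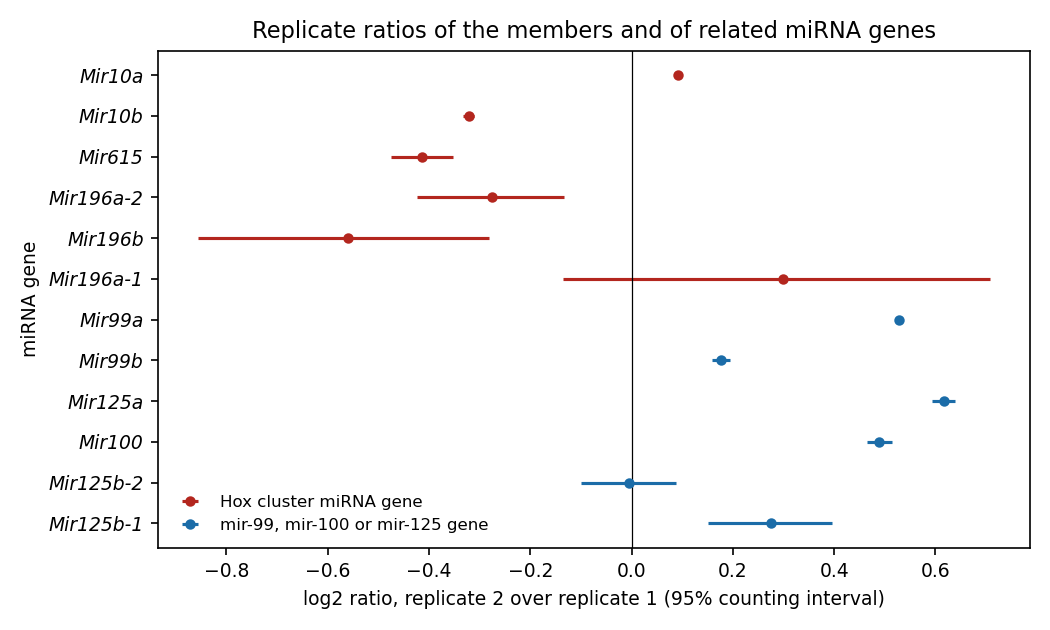
Log2 ratio of replicate 2 over replicate 1 with 95% counting intervals, for the 6 Hox cluster genes (red) and the 6 mir-99, mir-100 and mir-125 genes (blue). Of the red points, 4 lie left of 0, while 5 of the 6 blue points lie right of it and Mir125b-2 lies at -0.01.

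The genes closest to each member were found by the distance of log2(CPM + 1) over the 2 libraries, which with 2 libraries is a likeness of level. Mir10a stood nearest to Mir375 (distance 0.183) and then Mir126a. Mir10b stood nearest to Mirlet7d, which had 30470 and 23864 CPM (distance 0.0505), and then Mir143. Mir615 stood nearest to Mir17, with 1048 and 755 CPM, and then Mir146. Mir196a-2 stood nearest to Mir224 and Mir1843b, Mir196b to Mir362 and Mir877, and Mir196a-1 to Mir219a-1 and Mir702. None of these neighbours lies in a Hox cluster.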

How the data were processed

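MicroRNA sequencing of adrenal gland total RNA gave 1 table per library. The authors deposited raw read counts per miRNA gene, for genome build mm10 and GENCODE M21, per the description files that come with them. Aligner, counting tool and settings: not given in the sources used here. The tables have 3 unnamed count columns. They were taken as unstranded, sense and antisense, because the second holds no ambiguous read and the largest assigned sum. Sense counts were used, and the 4 summary lines were left out of library sizes.

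CPM was computed over assigned sense counts. TMM factors (0.994 and 1.006) came from edgeR 4.0.16, run in R 4.3.3. With 1 group, no conditions were compared. Replicates were compared across all miRNA genes with at least 10 counts by an exact two-sided binomial test with Benjamini-Hochberg adjustment at 0.05. The test was tried on simulated counts whose only random spread was counting noise, so its behaviour under wider spread was not examined. Log2 ratios had 0.5 counts added. Alternatives were DESeq2 1.42.0 size factors, unscaled totals, other denominators, no filter and unstranded counts. Mature arms and hairpins came from RefSeq (GRCm38.p6), where all 6 genes had mature arms and 5 a hairpin entry. The p-values test whether 2 libraries differ beyond counting noise, and they do not measure the size of the spread between samples. With 1 donor record for both libraries, such a difference may be technical, and intervals cover counting error only. Shared stretches were found in GENCODE M21 transcripts. The members and lists were chosen with earlier results of these data known. Named genes were the 6 members, their 2 nearest genes by level, mir-10 relatives and cell markers. Python 3.11.15 with scipy 1.17.1 did the rest.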

Additional observations from a re-analysis of the deposited data

Results flagged for a closer look

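Reads on the strand opposite Mir10a, which enter no comparison above, numbered 6 in replicate 1, more than the 3 counts that a count of 0 allows, and 2 in replicate 2, which is below that limit. Set against the sense counts of Mir10a, they make 7.73 and 6.95 antisense reads for each 1e+06 sense reads. The other 5 genes had 0 antisense counts in both replicates.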

How the results depend on the processing

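Each member kept the direction and call of its replicate ratio under DESeq2 size factors, unscaled totals, totals without Mirlet7g, no filter and unstranded counts. The log2 ratio of Mir10a ran from 0.05 to 0.17 over these. Genes called numbered 206 to 234 and members called 5. These counts of calls were not made for totals without Mirlet7g, where the ratio of each member was tested. The share of the 6 genes, 10.6%, became 12.1% without Mirlet7g in the total (12.148%) or with unstranded counts (12.139%), and 6.37% with multimapping reads added to the total. With that last denominator the levels were 47044 CPM for Mir10a, 15963 for Mir10b, 546 for Mir615, 93.6 for Mir196a-2, 26.4 for Mir196b and 10.6 for Mir196a-1. Unstranded counts gave 89708 CPM for Mir10a and 178 CPM for Mir196a-2. The members' counts are the same in these settings, apart from the 6 and 2 antisense reads of Mir10a in unstranded counts, and the total differs. Single replicates gave 10.628% to 10.639% for the share and 2.57 to 3.42 for the Mir10a to Mir10b ratio. Leaving out a replicate ends the replicate comparison, so it has no value there. No paired analysis was possible because there is 1 group. Multimapping reads limit Mir196a-1 and Mir196a-2, and 162 and 69 counts limit Mir196a-1 further.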

Other observations

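The tables hold no mRNA, so target sequence was looked at in the annotation alone, after the levels had been seen. Among the longest 3′ UTR of each of 20900 coding genes in GENCODE M21, Hoxb8 held the stretch most complementary to miR-196a-5p without gaps, with 21 of 22 bases in Watson-Crick pairs, and no other UTR reached that number. The stretch lies at chr11:96284888-96284909 (mm10, plus strand), 19.6 kb beyond Mir196a-1 in the same cluster. It is shown with bases complementary to miR-196a-5p in capitals.

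Hoxb8 site: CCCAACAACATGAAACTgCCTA

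Counted from the 5′ end of the site, it differs from the full complement of miR-196a-5p by A18G, which leaves a G:U pair, and from that of miR-196b-5p by G11T and A18G. The G:U pair lies within the seed, and the Hoxb8 3′ UTR held no exact complement of that seed. For miR-10a-5p the best Hox 3′ UTR, of Hoxa9, gave 14 of 23 bases in Watson-Crick pairs, a number reached by 5240 of 20882 UTRs. For miR-10b-5p it was Hoxa5 with 15 of 23, reached by 1240 UTRs. For miR-615-3p it was Hoxb13 with 14 of 22, reached by 4449 of 20900 UTRs. A match of letters is a description of the annotation and shows no binding in these samples.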
